A study of Mus musculus with 120 samples.

Results

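The interleukin-1 system of mouse macrophages was followed through 5 genes: the agonists Il1b and Il1a, the receptor antagonist Il1rn, and the inflammasome partners Nlrp3 and Casp1. They were taken by symbol, 5 of the 23481 gene symbols in the count table, and were read in all 120 libraries. Macrophages had been grown from the bone marrow of wild-type C57BL/6 males, aged 12 weeks. All of them, controls included, had been transduced with a transcription factor reporter virus and replated in 96-well format. They were exposed to halofuginone, an inhibitor of the prolyl-tRNA synthetase activity of Eprs that competes with proline, and to LPS, the bacterial ligand of Toll-like receptor 4. Each of the time labels 0, 1 and 4, written T0, T1 and T4 here, had 12 controls without halofuginone. At each time 7 doses (2.4, 9.7, 39, 156, 625, 2500 and 10000 nM) had 2 libraries with halofuginone alone and 2 with halofuginone and 2 mM proline. The series' design gives 30 min of small-molecule pretreatment before LPS, and the treatment protocol names a 4 hour dose curve with LPS and without it. No label gives the unit of the time, the LPS status of a single library or a proline supplement in the controls, so T0 is read here as the state before LPS. Nothing says that replicate libraries came from separate cultures or animals, so p-values measure only the spread between these libraries.

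Interleukin-1 beta is made as an inactive precursor after Toll-like receptor signalling and is cleaved by caspase-1 (Casp1) once an inflammasome has assembled around a sensor such as Nlrp3. Interleukin-1 alpha binds the same receptor without needing that cleavage, and the protein of Il1rn occupies the receptor without signalling. Transcription of Il1b and Nlrp3 after LPS is the classical priming step of macrophages. The data measure mRNA only, not cleavage or secretion.

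Il1a and Il1b are neighbours on mouse chromosome 2, both on the minus strand, with 54.6 kb between them in the GENCODE annotation of GRCm38. Il1rn lies far from both on the plus strand of the same chromosome, Nlrp3 on chromosome 11 and Casp1 on chromosome 9. The 250 bases before the start are printed for Il1b, Il1a, Il1rn and Nlrp3. The neighbouring agonist genes differed in direction at middle doses of halofuginone at T4, and the antagonist and the sensor are set beside them. Sequences are RefSeq's, on GRCm38.p6, 5′ to 3′ on the gene's own strand, and capitals mark motif matches.
Il1b, chr2:129371140-129371389, minus strand: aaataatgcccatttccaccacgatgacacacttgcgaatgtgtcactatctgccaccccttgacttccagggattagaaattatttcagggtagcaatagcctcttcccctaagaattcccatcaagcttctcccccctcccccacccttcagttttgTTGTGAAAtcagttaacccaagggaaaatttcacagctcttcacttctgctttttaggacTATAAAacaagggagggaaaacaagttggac
Il1a, chr2:129309973-129310222, minus strand: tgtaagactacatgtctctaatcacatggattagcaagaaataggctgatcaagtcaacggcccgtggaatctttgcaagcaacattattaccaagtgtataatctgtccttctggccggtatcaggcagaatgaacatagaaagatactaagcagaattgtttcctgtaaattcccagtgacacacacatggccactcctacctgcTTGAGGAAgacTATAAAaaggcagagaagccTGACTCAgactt
Il1rn, chr2:24336610-24336859, plus strand: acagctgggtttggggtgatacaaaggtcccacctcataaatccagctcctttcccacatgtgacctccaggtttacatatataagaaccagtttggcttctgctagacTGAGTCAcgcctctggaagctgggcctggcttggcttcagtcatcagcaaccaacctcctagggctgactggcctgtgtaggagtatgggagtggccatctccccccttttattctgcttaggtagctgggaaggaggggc
Nlrp3, chr11:59541319-59541568, plus strand: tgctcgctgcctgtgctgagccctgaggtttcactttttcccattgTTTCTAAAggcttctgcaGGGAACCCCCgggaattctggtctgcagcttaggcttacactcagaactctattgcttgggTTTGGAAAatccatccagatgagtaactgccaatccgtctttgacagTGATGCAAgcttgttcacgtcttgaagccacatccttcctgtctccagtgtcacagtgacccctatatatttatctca

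The motifs searched on both strands were AP-1 (TGANTCA), C/EBP (TTNNGNAA), the combined C/EBP-ATF element (TGATGNAA), IRF (GAAANNGAA), the core promoter letters TATAAA and the kappaB consensus. Il1b and Il1a each held TATAAA, at -31 and -32 from the start, and a C/EBP match, at -91 and -43. Il1a also held AP-1 at -12, and the window of the first Il1rn start held AP-1 at -141. That of the first Nlrp3 start held kappaB at -186, 2 C/EBP matches, the farther at -204, and C/EBP-ATF at -78. Of 32851 promoter windows of this length, 12.4% held TATAAA, 36.8% C/EBP, 6.75% AP-1, 3.45% C/EBP-ATF, 7.25% kappaB and 7.13% IRF. The Casp1 window, chr9:5298267-5298516, held none of these letters. RefSeq lists 3 starts for Il1rn and 2 for Nlrp3, and the first is shown. The windows of the other Il1rn starts held no AP-1 but 1 and 3 C/EBP matches, and that of the other Nlrp3 start held 1 C/EBP match and no other motif. A match describes letters and is not a binding site, and a missing match says nothing about a factor.

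Libraries held 20000 to 114061 counts, with a median of 49515. Ribosomal Rn45s took 27.0% to 71.1% of the counts, so levels are given as CPM, counts per 1000000 of the library's total without 6 abundant non-coding rows (5057 to 66561 counts per library). At the median library 1 count was worth 42.8 CPM. Rn45s moved with the dose: at T4 it held 27.0% to 42.7% of the counts in controls and 61.5% to 67.6% at 625 to 10000 nM. Of the 8 libraries under 30000 counts, 4 were among the 6 at these doses at T1. The macrophage label was checked on 10 listed markers, of which 9 were in the table and all 9 had counts, Csf1r in 120 of 120 libraries. Lyz2, a defining marker, had only 18 counts in 15 libraries, and Mertk 39 in 26. Markers of B cells summed to 4 counts, those of T and NK cells to 21, those of dendritic cells to 74, those of fibroblasts to 19, and those of mast and erythroid cells to 0. Of 9 neutrophil markers 8 had counts, led by S100a9 with 594, while the defining granule genes Elane and Mpo had 0 and 1. The summed neutrophil markers ran from 619 to 1042 CPM in T0 controls against 190 to 515 at high doses, and from 268 to 864 against 0 to 390 at T4. The summed macrophage markers ran from 2620 to 4134 in T4 controls against 1770 to 3195. The part of these shifts in the results below was not tested, and in bulk RNA fewer cells of a type and less RNA per cell cannot be told apart.

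Members differed in depth: over all libraries Il1b had 9419 counts, Il1rn 1726, Il1a 1724, Nlrp3 1686 and Casp1 711. Il1b and Nlrp3 passed the filter on low counts at every time. Il1a and Il1rn passed it everywhere except among the T0 libraries alone, and Casp1 only among T4 libraries and in the fit across times with high doses. High doses are 625, 2500 and 10000 nM, middle doses 39 and 156 nM, and low doses 2.4 and 9.7 nM. Changes are log2 fold changes of edgeR's quasi-likelihood test with their SE, called at an adjusted p under 0.05.

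The controls give the course after LPS. Il1b was low in T0 controls, at 38.4 ± 47.9 CPM (SD, n = 12), and 5 of the 12 libraries had no count. It stood at 5163 ± 761 at T1 and 5510 ± 680 at T4. The lowest, median and highest libraries were 0, 33.1 and 148 at T0, 4165, 5225 and 6311 at T1, and 4558, 5376 and 6721 at T4. T0 did not overlap with the later times, and T1 and T4 overlapped widely. Il1a went from 17.2 ± 31.2 at T0 to 323 ± 160 at T1 and 852 ± 223 at T4 (SD, n = 12). Its T1 libraries ran from 0 to 585 with a median of 357, and its T4 libraries from 534 to 1311 with a median of 860. Il1rn was the latest of the secreted ligands, with 20.6 ± 42.4 at T0, 198 ± 110 at T1 and 1378 ± 233 at T4. Its T1 libraries (49.4 to 407) lay wholly under its T4 libraries (1006 to 1751). Nlrp3 peaked early, with 63.6 ± 60.7 at T0, 746 ± 230 at T1 and 444 ± 111 at T4. Its T0 libraries (0 to 207) lay under the others, while T1 (369 to 1352) and T4 (240 to 596) overlapped. Casp1 was lowest at T1, with 157 ± 81.5 at T0, 71.4 ± 52.9 at T1 and 523 ± 164 at T4.

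In the fit of the 36 controls, Il1b, Il1a, Il1rn and Nlrp3 passed the filter through T1 and T4, where they are high, so their number among the called genes is not read. At T1 against T0, where 23.9% of all 708 tested genes were called, the log2 fold changes were 6.93 (SE 0.20) for Il1b, 4.197 (SE 0.45) for Il1a, 3.04 (SE 0.44) for Il1rn and 3.40 (SE 0.28) for Nlrp3. At T4 against T0, where 73.7% were called, they were 7.19 (SE 0.20) for Il1b, 5.69 (SE 0.37) for Il1a, 5.97 (SE 0.31) for Il1rn and 2.80 (SE 0.29) for Nlrp3. The Il1rn values were 3.91 and 6.84 without control replicate 5 of T0, which held 4 of the 7 T0 counts. From T1 to T4, where 62% were called, Il1rn rose by 2.93 (SE 0.20) and Il1a by 1.49 (SE 0.21), while Nlrp3 fell by 0.60 (SE 0.19, adjusted p = 0.00673). Il1b differed by 0.26 (SE 0.10, adjusted p = 0.0238), a difference that turned to -0.08 (adjusted p = 0.481) when libraries were scaled by their totals without abundant rows. Under that scaling the median of all genes moved by -0.34 in T4 against T1 and by -0.53 in T4 against T0. Nlrp3's fall from T1 to T4 was not called with no filter on low counts (-0.49, adjusted p = 0.0956). Casp1 was tested only with no filter on low counts, and there it was higher at T4 than at T0 by 2.13 (adjusted p = 2.07e-13) and than at T1 by 3.05 (adjusted p = 1.7e-21). Its lower level at T1 than at T0 was not called there (-0.91, adjusted p = 0.254).

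**Figure D1:**
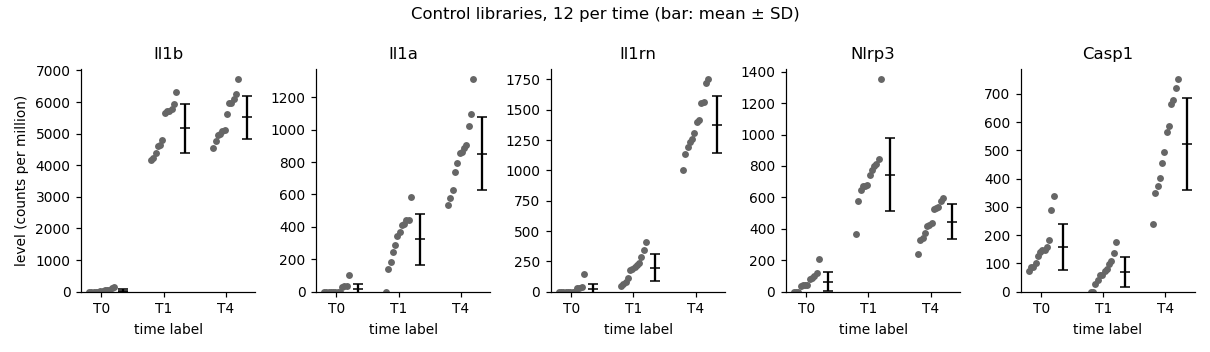
Level of each gene in CPM (vertical axis, its own scale in each panel) in the 12 controls of each time label (horizontal axis, sorted within a time), with mean ± SD as a bar. Il1b stands near its T4 level already at T1 (means 5163 and 5510), Il1rn is far higher at T4 than at T1 (1378 and 198), and Nlrp3 is highest at T1 (746).

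Before LPS, halofuginone raised Il1b and Nlrp3. At T0 Il1b stood at 1030 and 1188 CPM in the replicates of 39 nM, at 1921 and 707 at 156 nM, and between 617 and 1014 (median 889) in the 6 libraries of high doses. Without proline, every library from 39 nM up lay above the highest control (148), and 1 of the 4 libraries of 2.4 and 9.7 nM (336) did. Il1b had at most 5 counts and Nlrp3 at most 7 in any T0 control, so both passed the filter at T0 through the halofuginone libraries, and no count of called members is read there. The high doses, at which 39% of 1130 genes were called, raised Il1b by 4.24 (SE 0.43) and Nlrp3 by 2.92 (SE 0.44). Nlrp3 ran from 343 to 858 in these 6 libraries, all above the highest control (207). At middle doses, where 29.5% of genes were called, Il1b was higher by 4.75 (SE 0.42) and Nlrp3 by 2.30 (SE 0.50). The Il1b level of the high-dose libraries at T0 remained below the lowest T1 control (4165). Low doses had 3.19% of genes called and neither member, with Il1b at 1.47 (SE 0.64, adjusted p = 0.23). Rn45s at T0 held 38.9% to 51.8% of control counts against 61.2% to 64.1% at high doses.

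The other members were too sparse at T0 for the filtered test. Il1rn had 7 counts in the 12 controls, found in 4 libraries. At middle doses it had 35 counts in 4 of 4 libraries (358, 384, 372 and 505 CPM), all above the highest control (146). At high doses it had 24 counts in 4 of 6 libraries (0 to 791), which overlapped with controls. With no filter on low counts Il1rn was higher at middle doses by 3.91 (SE 0.62, adjusted p = 7.44e-08) and at high doses by 2.61 (SE 0.78, adjusted p = 0.0265). Il1a had 5 counts in controls and 13 in 3 of the 6 high-dose libraries, 4 and 5 of them in the replicates of 2500 nM. Casp1 had at least 2 counts in each of the 12 T0 controls (73.0 to 340 CPM) but 2 counts in all at high doses, in the 2 replicates of 10000 nM.

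After LPS the sign of the Il1b difference was the opposite. The labels do not separate LPS from the length of halofuginone exposure, here or in the tests across times below. Their parts cannot be told apart. At T1 the 6 high-dose libraries ran from 1021 to 3103 CPM with a median of 2208, all under the lowest control (4165). The change of Il1b was -1.35 (SE 0.18) at high doses and -1.44 (SE 0.20) at middle doses. At 9.7 nM both T1 libraries (2637 and 2698) were already under the controls, while those of 2.4 nM (6340 and 4545) were not. At T4 the step lay between 9.7 nM, with 5734 and 6454, and 39 nM, with 1533 and 2655. High-dose libraries at T4 ran from 1154 to 2086 with a median of 1396, and without proline no library from 39 nM up reached the lowest control (4558). At T4 it was -1.97 (SE 0.18, adjusted p = 8.73e-16) at high doses and -1.58 (SE 0.20) at middle doses. Low doses gave -0.44 (SE 0.17, adjusted p = 0.121) at T1, where 5.72% of 1066 genes were called and no member, and 0.07 (SE 0.16) at T4, where 4.33% of 1315 were called and no member. DESeq2 called the low-dose difference of Il1b at T1 (-0.50, adjusted p = 0.0418).

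**Figure D2:**
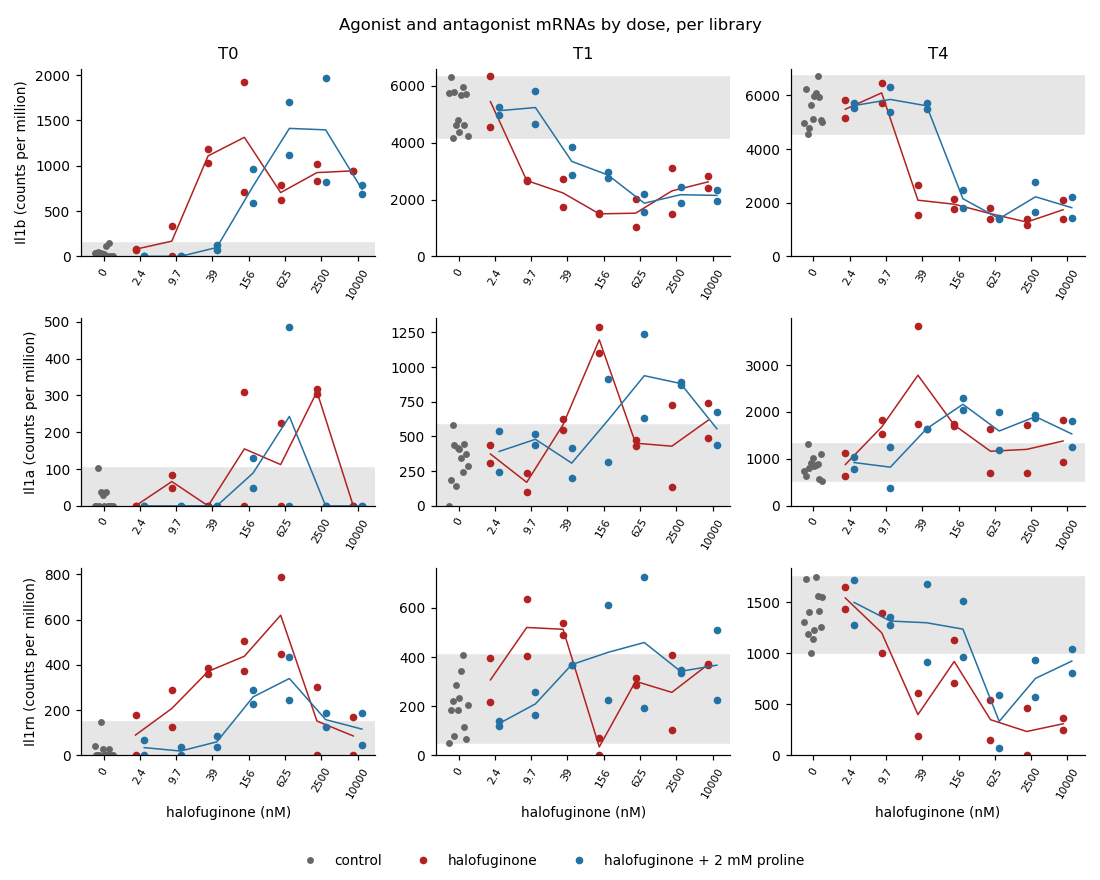
Level in CPM of Il1b, Il1a and Il1rn (rows, linear scale) in each library against halofuginone dose in nM (categories, not to scale) at T0, T1 and T4 (columns); grey points and band are the 12 controls and their range, lines join the means of 2 replicates. Without proline, Il1b is above the controls from 39 nM at T0 and below them from 39 nM at T4, and at 39 nM and T4 Il1a lies above the band and Il1rn below it.

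Il1a, the neighbouring agonist gene, did not follow Il1b. At T4 its controls ran from 534 to 1311 CPM. The halofuginone libraries stood at 1529 and 1829 at 9.7 nM, 1737 and 3828 at 39 nM and 1753 and 1691 at 156 nM. Both libraries of each of these 3 doses lay above every control. At 625, 2500 and 10000 nM they were split, with 693 and 1634, 1714 and 692, and 1838 and 926. Il1a rose by 1.22 (SE 0.27, adjusted p = 0.000181) at middle doses, while the high doses gave 0.47 (SE 0.24, adjusted p = 0.093). The high-dose difference at T4 was called when libraries were scaled by totals without abundant rows (0.64, adjusted p = 0.0194). It ranged from 0.15 to 0.64 as single libraries were left out, and was called without replicate 2 of 2500 nM, replicate 2 of 10000 nM or replicate 1 of 625 nM (adjusted p down to 0.0323). The middle-dose rise of Il1a was not called with no filter on low counts at T4 (0.82, adjusted p = 0.0677) or at T1 (0.94, adjusted p = 0.21).

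At T1 Il1a stood at 626 and 543 CPM at 39 nM and at 1105 and 1289 at 156 nM, against controls of 0 to 585. The libraries of 156 nM lay well above the controls. The middle-dose rise was 1.37 (SE 0.34, adjusted p = 0.00143). The high-dose libraries ran from 136 to 742 with a median of 482 and overlapped with controls, with a difference of 0.54 (SE 0.38, adjusted p = 0.281).

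Il1rn, the antagonist, fell at T4. Its controls there ran from 1006 to 1751 CPM. Without proline the replicates stood at 1003 and 1398 at 9.7 nM, 613 and 185 at 39 nM, 1127 and 712 at 156 nM, 154 and 545 at 625 nM, 468 and 0 at 2500 nM, and 248 and 370 at 10000 nM. From 39 nM up only 1 library, of 156 nM, reached the control range. Il1rn fell by 2.27 (SE 0.31, adjusted p = 2.82e-09) at high doses and by 1.29 (SE 0.32, adjusted p = 0.000782) at middle doses. Without replicate 1 of 2500 nM, which leaves that dose at 0 counts, the fitted high-dose change was -4.203 and is no usable size. At T1, when controls held only 1 to 11 counts each, no difference was called: 0.56 (SE 0.47, adjusted p = 0.374) at high doses and -0.47 (SE 0.66, adjusted p = 0.604) at middle doses. Its T1 values at 39 nM (537 and 489) lay above the controls (49.4 to 407), and those at 156 nM (69.0 and 0) did not.

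The counts of the 3 ligand mRNAs within a library give a composition that needs no scaling between libraries. The intervals are exact binomial ones at 95% and cover counting error only. In T1 controls Il1a made 6.14% (5.14 to 7.27) and Il1rn 3.51% of the counts of Il1b, Il1a and Il1rn, and in T4 controls 11.1% (10.2 to 12.1) and 17.5% (16.4 to 18.7). At T4 with high doses Il1a made 41.2% (35.3 to 47.2) and Il1rn 9.75% (6.52 to 13.9). With middle doses the shares were 47.4% (41.4 to 53.5) and 11.8% (8.19 to 16.2). Il1b went from 71.4% of the 3 in T4 controls to 49.1% at high and 40.8% at middle doses. At 39 nM Il1a made 52.2% of the counts and Il1b 39.7%. Rows of different length and 3′ end are counted with unlike efficiency, so only changes of a share between groups are read here.

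**Figure D3:**
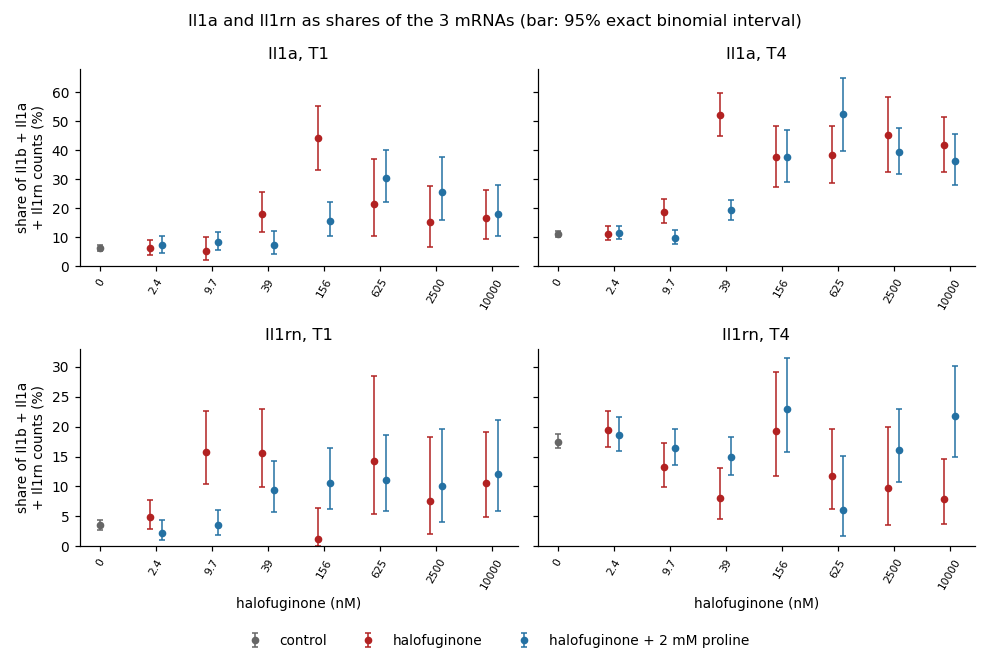
Share in percent of Il1a (upper row) and Il1rn (lower row) in the summed counts of Il1b, Il1a and Il1rn against halofuginone dose in nM (categories) at T1 and T4; bars are exact 95% binomial intervals, and 2 libraries are summed at each dose and 12 in controls. At T4 the Il1a share is 11.1% in controls, 52.2% at 39 nM alone and 19.3% at 39 nM with proline.

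Nlrp3 was higher with halofuginone at T4 too, though by less than before LPS. Its T4 controls ran from 240 to 596 CPM, and the 6 high-dose libraries from 468 to 1291 with a median of 832. These ranges overlapped, with 2 of the 6 libraries inside the control range (545 and 468). The rise was 0.79 (SE 0.27, adjusted p = 0.0118) at high doses and 0.77 (SE 0.32, adjusted p = 0.0469) at middle doses. At T1 the difference was 0.47 (SE 0.25, adjusted p = 0.137) at high doses and 0.49 (SE 0.26, adjusted p = 0.143) at middle doses. The T4 high-dose call was lost without replicate 1 of 625 nM, replicate 2 of 2500 nM or replicate 1 of 10000 nM (0.59 at the lowest, adjusted p up to 0.123), with median-of-ratios scaling (0.61, adjusted p = 0.0579) and with no filter (0.35, adjusted p = 0.587). The middle-dose call at T4 was lost without replicate 1 or replicate 2 of 156 nM (0.85 and 0.66) and fell to 0.41 (adjusted p = 0.429) without replicate 2 of 39 nM. It stood just past the threshold (adjusted p up to 0.0502) without replicate 1 of 2.4 nM or either replicate of 9.7 nM with proline. It was also lost with DESeq2 (0.51, adjusted p = 0.178), median-of-ratios scaling (0.51, adjusted p = 0.199), no abundant rows (0.72, adjusted p = 0.0654), no libraries under 30000 counts (0.85, adjusted p = 0.0608), no filter (0.38, adjusted p = 0.748) and the replicate block (0.79, adjusted p = 0.3). At T1 the middle-dose difference was called without replicate 1 of 156 nM (0.76, adjusted p = 0.0399).

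Casp1 went the other way. In T4 controls it ran from 241 to 752 CPM. The high-dose replicates stood at 462 and 109 at 625 nM, 77.9 and 346 at 2500 nM and 646 and 370 at 10000 nM, so that 4 of the 6 lay inside the control range. Casp1 fell by 0.95 (SE 0.39, adjusted p = 0.0323) at high doses and by 1.23 (SE 0.48, adjusted p = 0.0349) at middle doses. The high-dose call was lost without replicate 2 of 625 nM, replicate 1 of 2500 nM or replicate 2 of 10000 nM (to -0.69, adjusted p up to 0.174), and with totals without abundant rows (-0.77, adjusted p = 0.0855). The middle-dose call was lost without replicate 1 or replicate 2 of 156 nM or replicate 2 of 39 nM (to -1.05, adjusted p up to 0.163). At T1 Casp1 had 27 counts in the 12 controls, found in 10, and 0 counts in the 6 high-dose libraries.

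**Figure D4:**
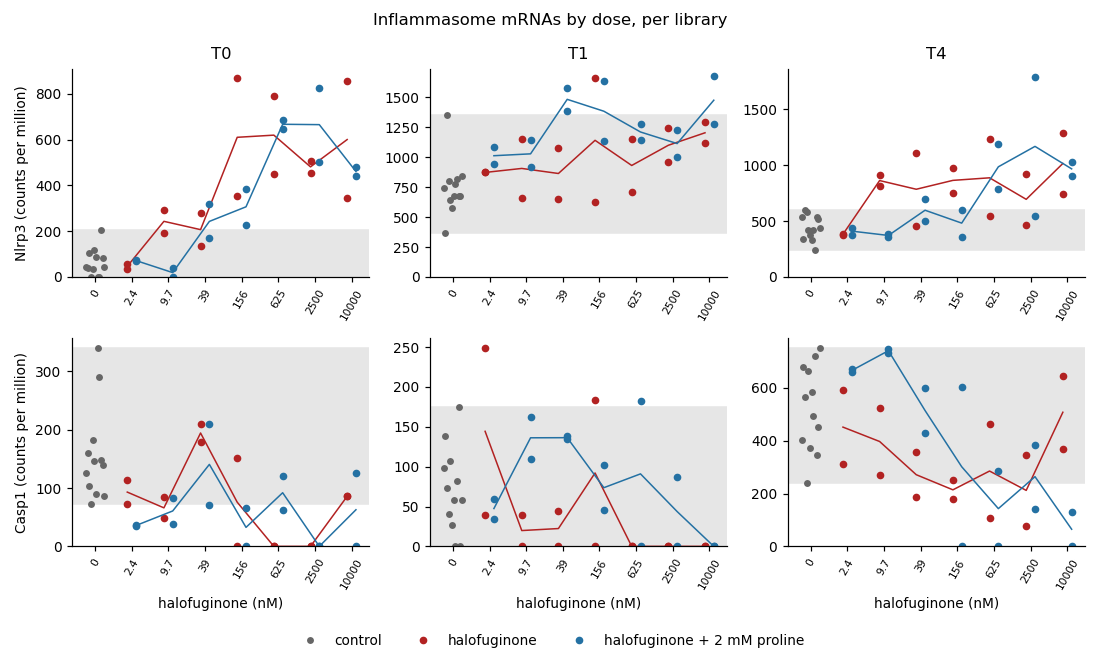
Level in CPM of Nlrp3 and Casp1 (rows, linear scale) in each library against halofuginone dose in nM (categories, not to scale) at T0, T1 and T4 (columns); grey points and band are the 12 controls and their range, lines join the means of 2 replicates. At T0 every Nlrp3 library from 156 nM up lies above the highest control (207), while without proline the Casp1 libraries of high doses at T0 hold at most 1 count each.

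Counted over the members, the high doses called 1 of 4 tested members at T1 (34.5% of all genes) and 4 of 5 at T4 (54.5%). Middle doses called 2 of 4 at T1 (29.2%) and 5 of 5 at T4 (40.8%). At T4 the direction was split at middle doses, with Il1a and Nlrp3 higher and Il1b, Il1rn and Casp1 lower. These comparisons share the 12 controls of their time. At T4 Casp1 and Il1rn had 29 and 27 counts in the 6 high-dose libraries, against 281 and 729 in the 12 controls. The filter took in those controls, where both are higher. The numbers of called members, here and with proline below, are therefore not read as a result about the members.

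The change across times was tested directly in a fit of 54 libraries. Under high doses of halofuginone Il1b differed from T0 by 1.12 (SE 0.26, adjusted p = 0.00308) at T1 and by 0.71 (SE 0.25, adjusted p = 0.0181) at T4, where 2.38% and 44.6% of 1640 genes were called. It was the member called in both. Nlrp3 gave 0.77 (SE 0.35, adjusted p = 0.255) and 0.43 (SE 0.35, adjusted p = 0.324), and Il1rn 0.47 (SE 0.60, adjusted p = 0.801) and 0.51 (SE 0.56, adjusted p = 0.502). The change from control at T1 less that at T0 was -5.78 (SE 0.39) for Il1b and -2.61 (SE 0.47) for Nlrp3, with 4.09% of genes called. At T4 less T0 it was -6.51 (SE 0.39) for Il1b, -5.47 (SE 0.99, adjusted p = 9.48e-06) for Il1rn and -2.41 (SE 0.47) for Nlrp3, with 16.8% called. For Il1rn at T1 it was -2.53 (SE 0.84, adjusted p = 0.0702). Il1a and Casp1 had dose groups with 0 counts in this fit and are given no fold. The Il1b calls under halofuginone were lost without replicate 1 of T1 2500 nM (0.95, adjusted p = 0.0783). At T4 they were lost without replicate 2 of T0 625 nM, replicate 1 of T4 10000 nM, replicate 1 of T4 2500 nM or replicate 2 of T4 625 nM (0.54 at the lowest, adjusted p up to 0.115). Leaving out replicate 1 of T0 2500 nM or replicate 2 of T0 10000 nM left an Il1rn dose group at 0 counts, and the T4 difference then moved to -3.86 at the nearest to 0 with no usable error (adjusted p = 1.00).

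Proline moved the dose at which Il1b changed. At T0 and 39 nM Il1b stood at 1030 and 1188 CPM without proline and at 126 and 70.5 with it, the latter inside the control range (0 to 148). At T0 and 156 nM it was 1921 and 707 against 964 and 586, all above the controls. At T4 and 39 nM the values were 1533 and 2655 without proline and 5715 and 5508 with it, again inside the control range (4558 to 6721). At T4 and 156 nM they were 1753 and 2136 against 1808 and 2488, all below the controls. At T1 the libraries with proline stood at 4651 and 5819 at 9.7 nM, where those without had 2637 and 2698. At T1 and 39 nM the values were 1744.5 and 2717 without proline and 3831 and 2852 with it, all below the lowest control (4165).

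The single-dose tests set 2 libraries against 2 in the fit of 40 libraries and were added after these values had been seen. At 39 nM Il1b was lower with proline at T0 (log2 fold change -3.41, SE 0.74, adjusted p = 0.00643, 0.708% of genes called) and higher at T4 by 1.51 (SE 0.31, adjusted p = 0.00059, 11.6% called). At T1 it differed by 0.54 (SE 0.31, adjusted p = 0.501), where 0 of 1066 genes were called by edgeR, 129 had an unadjusted p under 0.05 and DESeq2 called 16. Il1rn at T4 and 39 nM was 613 and 185 without proline and 916 and 1681 with it, a difference of 1.70 (SE 0.51, adjusted p = 0.0207). At 9.7 nM, where 2.39%, 1.69% and 1.06% of genes were called at T0, T1 and T4, no member was, with Il1b at T1 at 0.97 (SE 0.29, adjusted p = 0.0722). DESeq2 called that difference (0.97, adjusted p = 0.0144). At T0 and 9.7 nM Il1b had 8 counts without proline and 0 with it. The T4 call of Il1b at 39 nM was lost without replicate 1 of 39 nM alone (1.164, adjusted p = 0.0506). The T0 call was lost without replicate 2 of 39 nM alone or either replicate of 39 nM with proline (-3.08 to -3.80 without the latter, adjusted p up to 0.206). The Il1rn call was lost without replicate 2 of either arm (1.13 at the lowest, adjusted p up to 0.271), moved to 2.86 without replicate 1 of 39 nM alone, and was lost with no filter on low counts (1.83, adjusted p = 0.145).

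Over the middle doses together, Il1b with proline was lower than without it at T0 (log2 fold change -2.11, SE 0.47, adjusted p = 0.00443, 2.04% of genes called). It was higher at T4 by 0.86 (SE 0.25, adjusted p = 0.0301, 3.95% called), and gave 0.73 (SE 0.23, adjusted p = 0.0703, 1.22% called) at T1. In each of these 3 comparisons Il1b was the member nearest to or past the threshold, and no other member was called. Il1rn at T4 gave 1.13 (SE 0.38, adjusted p = 0.0755). The T4 call of Il1b was lost under 4 of the other settings and without 1 of 6 libraries, either replicate of 156 nM alone, replicate 1 of 39 nM alone, replicate 2 of 156 nM with proline or either replicate of 39 nM with proline (0.68 at the lowest, adjusted p up to 0.175). The T0 call was lost without replicate 1 of 156 nM alone or replicate 2 of 39 nM with proline (-1.66 at the nearest to 0, adjusted p up to 0.116).

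At high doses proline made no called difference in any member. The share of all genes called was 0.177% at T0, 0% at T1 and 0% at T4, with 110, 118 and 145 genes at an unadjusted p under 0.05 and 0 genes called by DESeq2 at each time. For Il1b the difference was 0.45 (95% interval -0.24 to 1.13) at T0, 0.10 (-0.33 to 0.52) at T1 and 0.18 (-0.26 to 0.61) at T4. For Il1a it was 0.72 (-0.10 to 1.54) at T1 and 0.37 (-0.19 to 0.93) at T4. For Il1rn it was 0.37 (-0.66 to 1.41) at T1 and 0.77 (-0.13 to 1.67) at T4. Nlrp3 gave 0.09 (-0.75 to 0.94), 0.32 (-0.25 to 0.88) and 0.23 (-0.40 to 0.86) at T0, T1 and T4, and Casp1 -0.91 (-2.11 to 0.29) at T4. These intervals do not show that the arms were alike.

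Against controls, the libraries with proline at high doses gave 3 of 4 tested members called at T1 (39.4% of genes) and 5 of 5 at T4 (51.9%), and 43.5% of genes were called at T0. Il1b was higher at T0 by 4.69 (SE 0.40) and lower at T1 (-1.26, SE 0.17) and T4 (-1.79, SE 0.18). Il1a rose by 1.26 (SE 0.32, adjusted p = 0.00135) at T1 and 0.84 (SE 0.23, adjusted p = 0.00189) at T4, where its 6 libraries ran from 1186 to 2002 CPM. The T4 rise of Il1a was lost without replicate 1 of 625 nM with proline (0.60, adjusted p = 0.138). Il1rn fell by 1.497 (SE 0.30, adjusted p = 2.19e-05) at T4 and gave 0.93 (SE 0.41, adjusted p = 0.0657) at T1. The T1 difference of Il1rn was called without replicate 1 of 625 nM or replicate 1 of 10000 nM with proline (1.17 at the highest, adjusted p down to 0.032). Nlrp3 rose at the 3 times, by 3.02 (SE 0.42), 0.79 (SE 0.23) and 1.02 (SE 0.27), and Casp1 fell by 1.85 (SE 0.45, adjusted p = 0.000436) at T4, on 15 counts in 6 libraries. Without replicate 1 of 625 nM or replicate 1 of 10000 nM with proline, each of which leaves a dose at 0 counts, the fitted Casp1 change moved as far as -3.65 and is no usable size. With no filter on low counts 4 of these were not called: Il1a at T1 (0.70) and T4 (0.42) and Nlrp3 at T1 (0.23) and T4 (0.60).

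At middle doses with proline 2 of 4 members were called at T1 (12.6% of genes) and 2 of 5 at T4 (17%), and 13.2% of genes were called at T0. Il1b was higher by 2.64 (SE 0.64, adjusted p = 0.00201) at T0 and fell by 0.71 (SE 0.18, adjusted p = 0.00271) at T1 and by 0.72 (SE 0.18, adjusted p = 0.00363) at T4. Nlrp3 rose by 1.91 (SE 0.50, adjusted p = 0.00457) at T0 and by 0.96 (SE 0.23, adjusted p = 0.00212) at T1. Il1a rose by 1.06 (SE 0.25, adjusted p = 0.00169) at T4. Il1rn (-0.17), Nlrp3 (0.26) and Casp1 (-0.35) were not called at T4. These means join doses at which Il1b differed in its place: with proline, its 39 nM libraries lay inside the control range at T0 and T4, and its 156 nM libraries lay above it at T0 and below it at T4. The T0 calls were lost without 1 replicate of 39 nM with proline, replicate 1 for Il1b (2.45, adjusted p = 0.0815) and replicate 2 for Nlrp3 (1.622, adjusted p = 0.122). The T1 call of Il1b was lost without replicate 2 of 39 nM with proline (-0.61, adjusted p = 0.0568).

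**Figure D5:**
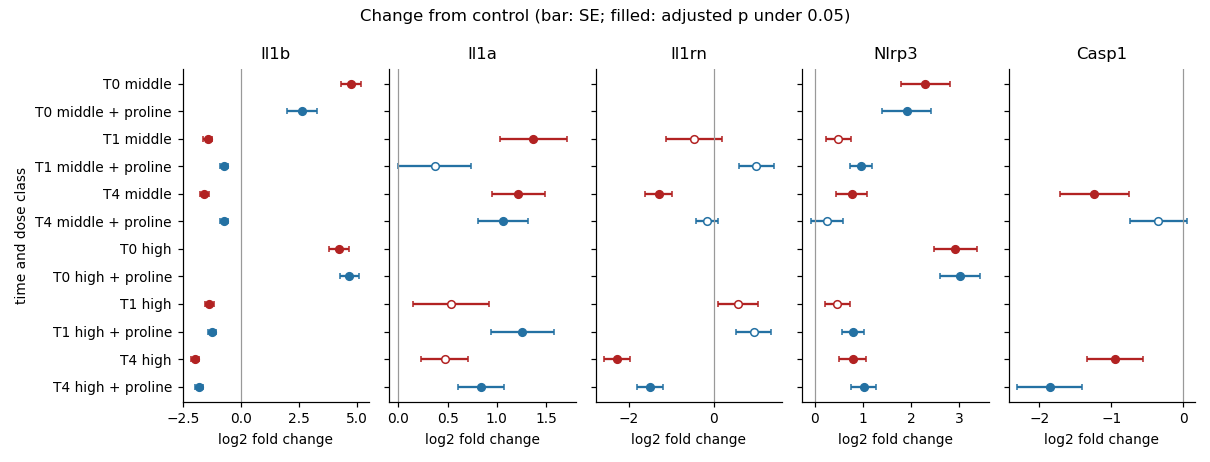
Log2 fold change from the controls of the same time (horizontal axis, its own scale in each panel) of the 5 genes for middle and high doses, red without and blue with 2 mM proline; bars are the SE and filled points had an adjusted p under 0.05 in edgeR's test. Il1b is right of 0 at T0 and left of 0 at T1 and T4, Il1a and Nlrp3 lie right of 0 throughout, and Casp1 lies left of 0 at T4, where alone it was tested.

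A list of 53 other gene symbols of the pathway put these members in context, of which 49 were in the table. The absent symbols were Il36a, Il36b, Il36g and Il36rn, while Il1f5, Il1f6, Il1f8 and Il1f9 were present. None of the 7 other ligands present passed the filter in any fit, and 3 of them had counts. None of the 9 receptors and binding proteins passed it either, and the signalling receptor Il1r1 had 3 counts, all in 1 library. Of 15 signalling genes 6 passed in some fit, and of 18 other inflammasome genes 7 did. In controls, 3 listed genes were tested, with a median change of 1.42 from T0 to T4 against -0.07 over all genes. Of these 3, 2 were higher at T4, where 73.7% of all genes were called in either direction. The filter took in the T4 libraries, in which Peli1 was high, and 3 genes are few. Neither the count nor the median is therefore a result about the list. The 2 higher genes were Peli1, a ubiquitin ligase of the receptor pathway, by 3.87 (SE 0.23) and the adaptor Tab2 by 1.42 (SE 0.23). Peli1 stood at 108 ± 80.0 CPM at T0, 573 ± 197 at T1 and 1439 ± 279 at T4 (SD, n = 12).

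At high doses at T4, 11 listed genes were tested, 1 higher and 5 lower, a share of called genes near the 54.5% over all genes. Their median was -0.997 against -0.23 over all genes. The count and the median kept genes with a dose group at 0 counts, so neither is read as a result about the list. Casp8, the initiator caspase, was the 1 higher by 1.27 (SE 0.43, adjusted p = 0.0109), with 54.5 to 1308 CPM against 48.0 to 604 in controls. Peli1 fell by 1.09 (SE 0.26) and Tab2 by 1.01 (SE 0.32), and Aim2, a sensor of cytosolic DNA, fell by 1.60 (SE 0.64, adjusted p = 0.0287). The adaptor Pycard, which links Nlrp3 to Casp1, stood at 69.5 to 235 CPM in the 12 controls (77 counts) and at 0 to 77.0 in the 6 high-dose libraries (2 counts). The ATP-gated channel P2rx4 stood at 33.5 to 419 CPM in controls (69 counts) and had 0 counts in those 6. The median library without abundant rows held 41545 counts in the controls and 12914 at high doses, so 1 count was worth more CPM at high doses (77.4 against 24.1 at the median). At T0 and T1 the only listed gene called at high doses was Txnip, a thioredoxin-binding protein described as an Nlrp3 partner, of 4 and 5 tested, when 39% and 34.5% of all genes were called. It was higher by 1.46 (SE 0.24) and by 3.67 (SE 0.52), from 43.9 ± 39.1 in T1 controls to 157 to 2593 in the high-dose libraries. The list medians were 0.27 at T0 and 0.24 at T1, against -0.21 at both times over all genes. They rest on 4 and 5 genes and are not read as a result about the list.

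Likeness of pattern was described by Pearson's correlation of mean log2 CPM over the 45 groups, among 1766 symbols. The groups share libraries' depth and times, so the coefficients carry no p. For Il1b the nearest were Sdc4 (0.93), the chemokine Ccl4 (0.93) and Tnfaip2 (0.91), and for Il1a the chemokines Cxcl10 (0.94) and Ccl9 (0.92) and then Tnip3 (0.92). For Nlrp3 they were Tnfaip3 (0.92), Tnf (0.84) and the activation marker Cd83 (0.83). Il1rn had weaker neighbours in Cd40 (0.82), Ccl7 (0.80) and Tgtp2 (0.77), and Casp1 had Ccnd2 (0.88), Tap1 (0.86) and the interferon-inducible Ifi47 (0.85). Among the members, Il1b and Nlrp3 gave 0.72, Il1b and Il1rn 0.68, Il1b and Il1a 0.65, and Nlrp3 and Casp1 -0.12.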

How the data were processed

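The deposited table holds raw 3′ digital gene expression counts per gene symbol for 120 libraries, made by the authors with a modified SCRB-Seq protocol and Nextera libraries, per the labels' protocols. BWA and mm10 are named in the submitters' processing notes; their versions, the use of molecular identifiers and the strand setting are not stated there. Depth was 20000 to 114061 counts per library, so low members rest on few counts. The intervals of the shares cover counting error only, while those of fold changes take in the spread between libraries in the fit. Groups came from the sample titles.

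Counts as deposited were tested with edgeR 4.0.16 in R 4.3.3 (limma 3.58.1), by TMM scaling, the filterByExpr filter with a minimum count of 10, and the two-sided quasi-likelihood test with Benjamini-Hochberg adjustment over all genes tested and a threshold of 0.05. One fit was made for the 36 controls, 1 for the 40 libraries of each time, and 1 for the 54 libraries of controls and high doses; dose groups were averaged within a class by contrasts. SEs were obtained from the size of a log2 fold change and its F value (size over root F), and 95% intervals are 1.96 SE to each side. CPM values used library totals without 6 abundant rows (Lars2, Rmrp, Rn4.5s, Rn45s, Rnu6 and Rpph1), and log2 CPM a prior count of 3. No fitted fold of a single gene is given where a dose group had 0 counts, but counts and medians over genes kept such genes.

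Alternatives were DESeq2 1.42.0, median-of-ratios scaling, no filter, no abundant rows, no libraries under 30000 counts, no 10000 nM dose, the replicate number as a block, and leaving out each library. Those that leave out libraries or rows kept the genes tested with all libraries. The single-dose proline comparisons, totals without abundant rows and the share of Il1a were chosen after seeing the data. The members and gene lists were chosen with earlier results of these data known. All 5 members are named, and other genes are named where they were called within the pathway list or were the 3 most alike to a member. Methods were tested on simulated data. Replicate numbers were not used as pairs in the main fits. Gene positions are those of GENCODE on GRCm38, and promoter windows are RefSeq's on GRCm38.p6. Of the 240 pairs of libraries of 1 group, 0 were identical.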

Additional observations from a re-analysis of the deposited data

Results flagged for a closer look

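The halofuginone change at high doses differed between time labels for 3 members, by a test of the difference itself in edgeR. Over all genes 4.09% were called for T1 less T0 and 16.8% for T4 less T0. The 3 members passed the filter through libraries in which they are high, so their number is not read. For Il1b the change from control was lower at T1 than at T0 by a log2 difference of -5.78 and at T4 than at T0 by -6.51. Its level was above the controls at T0 and below them later. For Nlrp3 these differences were -2.61 and -2.41, and Nlrp3 was called higher than in controls at T0 and T4 but not at T1. For Il1rn the difference of T4 from T0 was -5.47, and it rests on 24 T0 counts at high doses. Rn45s took more of the counts at high doses at all 3 times, and its part in these differences was not tested. No group had 4 to 10 replicate libraries, so no single library was tested as standing apart.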

How the results depend on the processing

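Of 4668 values of 133 member results under the alternatives, 4566 kept their side of the threshold, 78 lost and 23 gained a call. A further 1 turned its sign where a value was called. A turn of sign between 2 uncalled values was counted as kept. Such a case was Il1b at low doses at T0, from -1.07 to 1.88 as single libraries were left out. Unless a cause is named it was not tested. Low counts set the limit: 1 count was worth 42.8 CPM at the median library, and Casp1 and T0 Il1a rest on a few counts per library. Median-of-ratios scaling moved the median of all genes by -0.26 to 0.34 (log2), over 0.1 in 17 of 37 comparisons, and totals without abundant rows by -0.53 to 0.46, over 0.1 in 9.

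With totals without abundant rows, Il1b from T1 to T4 in controls turned to -0.0778 (adjusted p = 0.481). Calls lost there were Casp1 at T4 at high (-0.77) and middle doses (-1.08) and the middle-dose proline difference of Il1b at T4 (0.76). Calls gained were Il1a at high doses at T4 (0.64) and the 9.7 nM proline difference of Il1b at T1 (1.03).

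With no filter on low counts more genes are adjusted over. Calls lost were Il1a at middle doses at T1 (0.94) and T4 (0.82), with proline at high doses at T1 (0.70) and T4 (0.42) and at middle doses at T4 (0.77). Others lost were the proline differences of Il1b at middle doses at T4 (0.96) and of Il1rn at 39 nM at T4 (1.83). For Nlrp3 they were high (0.35) and middle doses (0.38) at T4, proline high doses at T1 (0.23) and T4 (0.60), proline middle doses at T1 (0.71), and T4 against T1 in controls (-0.49).

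DESeq2 gained Il1b at low doses at T1 (-0.50), the Il1b proline differences at T1 at 9.7 nM (0.97) and middle doses (0.78), Il1rn's T1 less T0 difference (-2.59) and its middle-dose proline difference at T4 (1.28), and lost Nlrp3 at middle doses at T4 (0.51). Median-of-ratios scaling gained that Il1rn proline difference (1.27) and lost Nlrp3 at T4 at high (0.61) and middle doses (0.51). Without abundant rows the Il1b proline differences at T1 were gained at 9.7 nM (1.02) and middle doses (0.80), and Nlrp3 at middle doses at T4 was lost (0.72). Without libraries under 30000 counts, calls lost were Casp1 at middle doses at T4 (-1.35), Il1b T1 against T0 under high doses (0.84), its middle-dose proline difference at T4 (0.91) and Nlrp3 at middle doses at T4 (0.85), and the middle-dose proline difference of Il1b at T1 was gained (0.77). Without 10000 nM, Il1b T1 (1.00167) and T4 (0.61) against T0 under high doses, Nlrp3 at high doses at T4 (0.60) and with proline at T1 (0.64) were lost, and Il1rn's T1 less T0 difference was gained (-3.31).

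Same-numbered controls of different times had a mean correlation of 0.0637 over 36 pairs, against -0.00567 over 396 pairs of different numbers. Same-numbered treated libraries gave 0.00308 over 861 pairs. Control replicate 9 had the lowest Rn45s share among controls at each time (38.9%, 35.7% and 27.0%). Whether control numbers mark a shared source was not tested. Treated libraries carry only the numbers 1 and 2. In the fits of a single time the block therefore gives each control numbered 3 to 12 a term of its own. Comparisons with controls then rest on control replicates 1 and 2, so changes under the block mix the block with the loss of the other controls. With the replicate block, calls lost were Casp1 at T4 at high (-1.07) and middle doses (-1.34), and Il1b with proline at middle doses at T0 (2.59) and T4 (-0.77) and its middle-dose proline difference at T4 (0.86). Nlrp3 was lost at T4 at high (0.79) and middle doses (0.79) and with proline at high doses (1.02), and with proline at middle doses at T0 (2.59) and T1 (1.389). Il1a at high doses at T1 was gained (2.28).

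Single controls were left out only in the fit of controls, so the ranges for halofuginone do not show how far they rest on 1 control. Leaving out single libraries changed a call for 21 results, with these ranges, and moved others by over 1.5 times with no change of call. Among these, Il1rn at high doses at T4 ran from -4.203 to -1.99, and Casp1 with proline at high doses at T4 from -3.65 to -1.57. Casp1 at T4 ran from -1.35 to -0.69 at high and from -1.52 to -1.05 at middle doses. Il1a at T4 ran from 0.15 to 0.64 at high doses and from 0.60 to 0.95 with proline. Il1b with proline at middle doses ran from 2.45 to 2.81 at T0 and from -0.81 to -0.61 at T1. Il1b against T0 under high doses ran from 0.95 to 1.30 at T1 and from 0.54 to 0.83 at T4. The Il1b proline differences ran from -3.80 to -3.08 (39 nM, T0), 1.164 to 1.93 (39 nM, T4), -2.41 to -1.66 (middle, T0) and 0.68 to 1.07 (middle, T4). Il1rn's difference from T0 ran from -2.90 to -0.90 at T1, gained without replicate 1 of T0 10000 nM or replicate 2 of T0 or T1 2500 nM, and from -7.31 to -3.86 at T4. Il1rn with proline at high doses at T1 ran from 0.61 to 1.17, and its T4 proline differences from 1.13 to 2.86 at 39 nM and 0.84 to 1.71 at middle doses, the last gained without replicate 1 of 39 nM. Nlrp3 ran from 0.59 to 0.95 at high doses at T4, 0.0307 to 0.76 and 0.41 to 1.03 at middle doses at T1 and T4, and 1.622 to 2.10 with proline at middle doses at T0.

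Counts of called genes moved by over 1.5 times with the replicate block, with no filter and with single libraries left out. Under the block, comparisons with the controls of a time rest on control replicates 1 and 2 alone, so its lower counts also reflect fewer controls. With the block the high doses called 235 rather than 441 genes at T0, 209 rather than 368 at T1 and 425 rather than 717 at T4, and low doses 5, 8 and 9 rather than 36, 61 and 57. Middle doses called 139, 151 and 264 rather than 333, 311 and 537. With proline the block gave 261, 214 and 392 rather than 492, 420 and 683 at high doses, and 41 and 51 rather than 149 and 223 at middle doses at T0 and T4. With no filter, proline at middle doses at T1 had 49 rather than 134, the high doses at T1 had 559, the controls 318, 2194 and 1745 rather than 169, 522 and 439, the T4 less T0 difference 141 rather than 276, the 39 nM proline difference at T4 53 rather than 153 and the middle-dose one 11 rather than 52. Without 10000 nM, T1 against T0 under high doses had 19 rather than 39. DESeq2 called 26 rather than 13 (middle doses, T1) and 83 rather than 52 genes (T4), and 24 rather than 14 at 9.7 nM at T4. Leaving out 1 library also took the proline differences to 5 from 27 (9.7 nM, T0, without proline replicate 2), 1 from 18 (9.7 nM, T1, without proline replicate 1) and 4 from 14 (9.7 nM, T4, without proline replicate 1). It took them to 1 from 8 (39 nM, T0, without proline replicate 1), 6 from 23 (middle, T0, without 156 nM replicate 1) and 0 from 13 (middle, T1, without 39 nM replicate 1). At high doses it took them from 2 to 6 (T0, without 625 nM replicate 2), from 0 to 6 (T1, without 625 nM replicate 2) and from 0 to 5 (T4, without 10000 nM replicate 1).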
